A study of Mus musculus with 6 samples.

Results

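Collagen chain transcripts were measured in messenger RNA of whole mouse testes at day 9. Members were the genes whose deposited symbol was Col, a number, a and a number, with only the first letter in capitals. This gave 38 of the 22274 genes of the table. Another 6 collagen genes, Col4a5, Col4a6, Col5a3, Col6a3, Col9a3 and Col22a1, are deposited in capital letters and are missed by that rule. They are described beside the members and are not counted among them. In either spelling the table held 44 collagen chain genes, the number of collagen chain symbols in the reference annotation. The study compared 3 control libraries with 3 conditional knockout (cKO) libraries, and asked whether DCAF2, a substrate receptor of the CRL4 ubiquitin ligase, has a role in making sperm. The cKO mice came from Dcaf2fl/fl mice crossed with Stra8-Cre mice. The Stra8 promoter drives Cre in germ cells, so the somatic cells of the testis are not the cells in which the gene was to be deleted. The labels give the control genotype only as control, and do not say which of the alleles the controls carried. Labels do not say whether the 3 libraries of a group are separate animals, and the p-values measure only how far these libraries spread, which may be technical.

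Collagens are secreted proteins built of 3 chains wound into a triple helix, which needs a glycine in each triplet of residues. Fibrillar collagens (types I, III and V among them) form the fibers of connective tissue. Type IV collagen forms the sheet of basement membranes, on which Sertoli cells and spermatogonia rest in the seminiferous tubule, and type VI forms beaded filaments around cells. In the testis, collagen is made mainly by somatic cells, among them Sertoli cells, peritubular myoid cells and interstitial cells. Which cells made each chain was not measured here.

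The coding sequences show how the classes differ in build, and 4 chains with high transcript levels are given as examples. In each, 90 bases of the longest run of glycine codons are printed 5′ to 3′, and capitals mark the glycine codon of each triplet (GGN). The run starts at the first capital, except in Col4a1, where the end of the run is shown: the capitals stop where the repeat is interrupted. Bases are counted from the start codon of the longest coding transcript in GENCODE M21 (build GRCm38).
Col1a1 (bases 502 to 591): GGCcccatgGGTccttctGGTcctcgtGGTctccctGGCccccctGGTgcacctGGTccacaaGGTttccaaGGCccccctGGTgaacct
Col1a2 (bases 289 to 378): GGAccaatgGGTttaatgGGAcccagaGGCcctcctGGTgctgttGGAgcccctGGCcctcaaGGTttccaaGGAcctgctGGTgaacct
Col6a1 (bases 766 to 855): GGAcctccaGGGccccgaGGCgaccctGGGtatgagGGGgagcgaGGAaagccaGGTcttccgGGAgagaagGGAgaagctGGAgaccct
Col4a1 (bases 442 to 531): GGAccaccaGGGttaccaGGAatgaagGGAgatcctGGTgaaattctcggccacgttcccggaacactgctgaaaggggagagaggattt
The longest unbroken run was 338 triplets in Col1a1, 339 in Col1a2, 87 in Col6a1 and 40 in Col4a1. Over the genes in either spelling, the median longest run was 338 triplets in the 11 fibrillar genes, with a range of 216 to 344. It was 41 in the 8 basement membrane genes, 60 in the 9 network genes and 48 in the 16 other genes.

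Most collagen transcripts took a larger part of the RNA in the cKO libraries. Of the 36 members that passed the filter on low counts, 23 rose and 0 fell (edgeR's quasi-likelihood test, Benjamini-Hochberg adjusted p under 0.05). Over all 14424 tested genes, 11.1% rose and 13.9% fell. At an unadjusted p under 0.05 (edgeR), 26 members were higher and 1 was lower, against 2756 and 2880 of all 14424 tested genes. DESeq2 called 25 members higher and 0 lower, against 11.9% and 15.8% of all tested genes. The 23 genes rose by 1.34-fold (Col6a2) to 1.79-fold (Col6a5). The log2 fold change was above 0 in 33 of the 36, and its median was 0.48, against 0.03 over all tested genes. In 27 members every cKO library was above every control library, and in 1, Col2a1, every cKO library was below every control. Over all tested genes, those shares were 22.5% and 22.1%. Col10a1, a chain of growth plate cartilage, and Col19a1 had at most 2 counts in any library and were not tested. Leaving out a library changed the count: 14, 14 and 13 members rose without cKO 1, 2 or 3, and 24, 24 and 19 without control 1, 2 or 3.

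**Figure D1:**
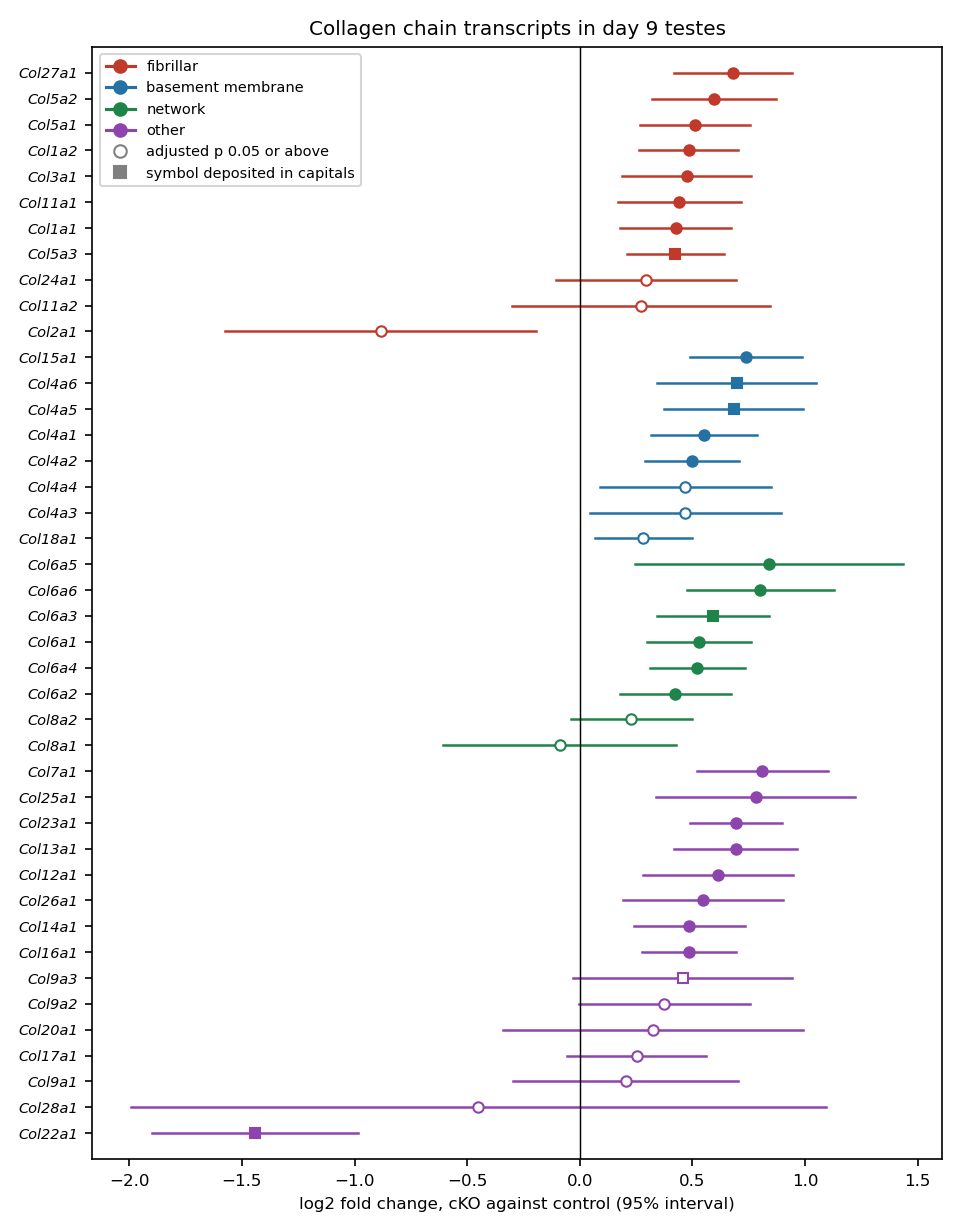
Log2 fold change of each tested collagen gene, cKO against control, with its 95% interval from the fit over all genes. Points are filled where the adjusted p was under 0.05, and squares are the genes deposited in capital letters. Of the members, 33 lie above 0, and the lowest points are Col2a1 at -0.88 and, among the genes in capitals, Col22a1 at -1.44.

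The counts of higher members lay among the more abundant ones. Of the 29 tested members with a mean of at least 10 CPM (counts scaled to library size) over all 6 libraries, 23 rose, against 13.8% of all tested genes at that level. Of the 7 below 10 CPM, edgeR called 0 higher and 0 lower, against 3.89% higher of all tested genes at that level. At an unadjusted p under 0.05 (edgeR), these 7 gave 0 and 1, against 432 and 838 of all 3938 tested genes at that level. DESeq2 called 0 of the 7.

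Col3a1, the chain of type III collagen, and both chains of type I collagen were the most abundant collagen transcripts per length. Their mean FPKM values (fragments scaled to transcript length and library size) were 731 for Col3a1, 574 for Col1a2 and 315 for Col1a1, which placed them at ranks 35, 51 and 135 of all 22274 genes. Col1a1, which encodes the alpha 1 chain of type I collagen, read 1781, 1422 and 1596 CPM in the controls against 2053, 2153 and 2237 CPM in the cKO libraries. Col1a2, its partner chain, read 2654, 2377 and 2667 CPM in the controls against 3659, 3490 and 3611 CPM in the cKO libraries. Col3a1 read 2922, 2370 and 3246 CPM in the controls against 4093, 3834 and 3931 CPM in the cKO libraries. The 2 groups did not overlap for any of these genes, and control 2 was the lowest library for all 3. Their log2 fold changes were 0.43 ± 0.11 (SE) for Col1a1, 0.48 ± 0.10 for Col1a2 and 0.47 ± 0.13 for Col3a1, with adjusted p of 0.0228, 0.00875 and 0.0263 (edgeR). Of the 6 fits that leave out a library, 4 lost the Col1a1 call (without control 3 or any 1 cKO library, edgeR adjusted p up to 0.0992). For Col3a1, 3 lost it (without any 1 cKO library, up to 0.115), and for Col1a2, 2 did (without cKO 1 or 2, up to 0.0607).

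Type V collagen sits inside type I fibrils and limits their width. Col5a1 rose from 342 ± 37.6 to 487 ± 28.2 CPM (SD, n = 3 in each group), or 0.51 on the log2 scale. Col5a2 rose from 266 ± 42.3 to 403 ± 16.8 CPM, or 0.60 on the log2 scale. Adjusted p was 0.0109 and 0.00924 (edgeR). Col5a3, deposited in capitals, rose by 0.42 on the log2 scale, from 40.6 ± 3.5 to 54.5 ± 1.24 CPM (edgeR adjusted p = 0.0140). The call was lost without cKO 3 for Col5a1, without cKO 1 for Col5a2 and without any 1 cKO library for Col5a3.

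Among the less abundant fibrillar chains, Col27a1 rose by 0.68 on the log2 scale and Col11a1, a minor fibril chain, by 0.44. The Col27a1 call held in all 6 fits that leave out a library, and the Col11a1 call was lost in 4 of them (without control 3 or any 1 cKO library, edgeR adjusted p up to 0.110). Col27a1 read 22.5, 21.4 and 22.0 CPM in the controls against 32.8, 32.5 and 40.5 CPM in the cKO libraries. Col11a2 and Col24a1 did not pass the test, with log2 fold changes of 0.27 and 0.29. In all, 7 of 10 fibrillar members rose, and the median log2 fold change of the 10 was 0.46. Col2a1, the main fibrillar collagen of cartilage, was the exception in direction. It read 1.64, 1.84 and 2.52 CPM in the controls against 1.3, 0.939 and 0.996 CPM in the cKO libraries, a log2 fold change of -0.88 ± 0.31 (SE) with an edgeR adjusted p of 0.0623.

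**Figure D2:**
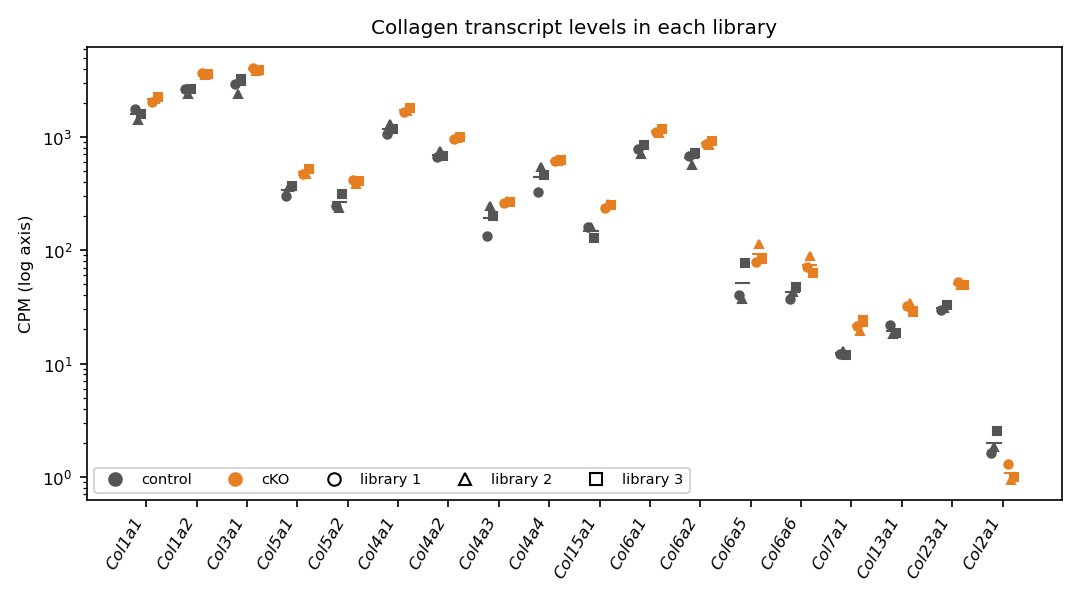
CPM of 18 collagen genes in every library on a log axis. Symbols mark the library number, which does not link a control to a cKO library, and the short lines are group means. The cKO points of Col1a1, Col4a1 and Col6a1 all lie above the control points, while those of Col2a1 lie below.

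Basement membrane chains were higher in the cKO libraries throughout, but only some passed the test: 3 of 6 members rose, the other 3 were above 0 in log2 fold change, and the median was 0.48. Col4a1 and Col4a2 form the type IV collagen found in nearly every basement membrane. Col4a1 read 1063, 1292 and 1165 CPM in the controls against 1667, 1699 and 1791 CPM in the cKO libraries. Col4a2 read 661, 746 and 674 CPM in the controls against 964, 971 and 1005 CPM in the cKO libraries. Neither pair of groups overlapped, and the log2 fold changes were 0.55 ± 0.10 and 0.50 ± 0.09 (SE), with edgeR adjusted p of 0.00682 and 0.00638. Both calls held when any 1 library was left out.

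Col4a3 and Col4a4 belong to the more restricted type IV network that also uses Col4a5. Col4a3 read 133, 245 and 199 CPM in the controls against 259, 270 and 268 CPM in the cKO libraries. Col4a4 read 324, 546 and 465 CPM in the controls against 616, 612 and 622 CPM in the cKO libraries. Control 1 was the lowest library for both genes, and control 2 was the highest control. The SD of the controls was 56.1 CPM for Col4a3 and 112 CPM for Col4a4, against 6.25 and 4.98 CPM in the cKO libraries. Neither passed the test, with log2 fold changes of 0.47 and 0.47 and edgeR adjusted p of 0.0967 and 0.0694. Col4a4 passed without control 1 (adjusted p 0.0405, log2 fold change 0.26) and without control 2 (adjusted p 0.0161, log2 fold change 0.63), and with DESeq2 (adjusted p 0.0451). Col4a3 passed without control 2 (adjusted p 0.0178).

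The 2 X-linked chains in the capital-letter group rose as well. Col4a5 read 103, 144 and 146 CPM in the controls against 217, 214 and 200 CPM in the cKO libraries. Col4a6 read 28.2, 36.3 and 42.9 CPM in the controls against 64.8, 58.0 and 50.9 CPM in the cKO libraries. Their log2 fold changes were 0.68 ± 0.14 and 0.70 ± 0.16 (SE), with adjusted p of 0.00866 and 0.0140 (edgeR). The Col4a6 call was lost without cKO 1 or cKO 2.

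Col15a1 and Col18a1 encode the multiplexin chains that sit beside basement membranes. Col15a1 had the highest log2 fold change of the 6 members in this class, 0.74 ± 0.11 (SE), with an edgeR adjusted p of 0.00287. It read 159, 160 and 128 CPM in the controls against 236, 256 and 252 CPM in the cKO libraries. Col18a1 read 513, 592 and 581 CPM in the controls against 666, 681 and 705 CPM in the cKO libraries. Its groups did not overlap either, but its log2 fold change of 0.28 had an edgeR adjusted p of 0.0570.

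Type VI chains made up the abundant part of the network class, in which 5 of 7 tested members rose with a median log2 fold change of 0.52. Col6a1 read 781, 709 and 857 CPM in the controls against 1112, 1091 and 1187 CPM in the cKO libraries. Col6a2, its usual partner, read 677, 570 and 716 CPM in the controls against 863, 845 and 925 CPM in the cKO libraries. Col6a3, deposited in capitals, rose from 327 ± 33.8 to 494 ± 37.1 CPM. The log2 fold changes were 0.53 ± 0.10, 0.42 ± 0.11 and 0.59 ± 0.11 (SE), with edgeR adjusted p of 0.00763, 0.0230 and 0.00638. The Col6a2 call was lost without any 1 cKO library.

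The other type VI chains were at lower levels. Col6a4 read 62.4, 72.8 and 69.4 CPM in the controls against 99.4, 95.1 and 98.9 CPM in the cKO libraries, a log2 fold change of 0.52. Col6a6 rose by 0.80 on the log2 scale, from 42.5 ± 5.06 to 74.0 ± 13 CPM. Col6a5 read 40.5, 37.1 and 76.5 CPM in the controls against 79.3, 113 and 83.1 CPM in the cKO libraries. Control 3 stood close to the cKO libraries for Col6a5. Its log2 fold change was 0.84 ± 0.26 (SE) with an edgeR adjusted p of 0.0454, and the call was lost in 5 of the 6 fits that leave out a library. Col8a1 and Col8a2, the chains of the lattice of endothelial and corneal membranes, did not pass the test, with log2 fold changes of -0.09 and 0.23.

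The remaining class holds transmembrane collagens, fibril-associated collagens, the anchoring fibril chain Col7a1, and others such as Col26a1 and Col28a1. In it 8 of 13 tested members rose (median log2 fold change 0.49). Col7a1 read 12.2, 13 and 11.8 CPM in the controls against 21.5, 19.3 and 24.2 CPM in the cKO libraries, a log2 fold change of 0.81 ± 0.13 (SE) with an edgeR adjusted p of 0.00364. Among the transmembrane chains, Col23a1 read 29.5, 31.2 and 32.8 CPM in the controls against 52.5, 49.7 and 49.0 CPM in the cKO libraries. Its log2 fold change was 0.69 ± 0.09 (SE), with an edgeR adjusted p of 0.00173. Col13a1 rose by 0.69 and Col25a1 by 0.78 on the log2 scale, while Col17a1, a chain of epithelial anchoring junctions, did not pass (0.25). The Col25a1 call was lost without control 3, cKO 1 or cKO 3.

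Of the fibril-associated chains, Col12a1, Col14a1 and Col16a1 rose by 0.61, 0.49 and 0.49 on the log2 scale. The calls of Col12a1 and Col14a1 were lost without cKO 2 or cKO 3. Col16a1 read 124, 107 and 119 CPM in the controls against 161, 166 and 163 CPM in the cKO libraries. Outside the fibril-associated chains, Col26a1 read 24.1, 16.4 and 17.6 CPM in the controls against 28.4, 30.6 and 25.9 CPM in the cKO libraries. Its log2 fold change was 0.55 and its call was lost in 5 of the 6 fits that leave out a library. The fibril-associated Col9a1, Col9a2 and Col20a1 did not pass, with log2 fold changes of 0.20, 0.38 and 0.32. Neither did Col28a1 (-0.45), which is outside that group.

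Col22a1, a fibril-associated collagen of tissue junctions, went the other way. It is one of the genes deposited in capitals and is not a member by the rule. It read 15.7, 22.2 and 20.0 CPM in the controls against 8.84, 5.58 and 6.91 CPM in the cKO libraries, and every cKO library was below every control. Its log2 fold change was -1.44 ± 0.20 (SE), with an edgeR adjusted p of 0.00229, and the call held when any 1 library was left out. Of the 6 genes in capitals, 4 rose, Col22a1 fell, and Col9a3 did not pass (log2 fold change 0.46, adjusted p 0.150, edgeR).

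Collagens together took a larger share of the transcript pool. Members held 0.590, 0.568 and 0.636% of all FPKM in the controls and 0.836, 0.797 and 0.844% in the cKO libraries. The groups did not overlap, and the exact permutation test over libraries gave p = 0.1 (two-sided), the smallest p that 3 against 3 allows. Fibrillar chains made up 58.5 ± 4.46% of collagen FPKM in the controls and 57.1 ± 0.569% in the cKO libraries (SD, n = 3, exact permutation p = 0.7). Basement membrane chains made up 22.2 ± 4.85% and 23.2 ± 0.339% (exact permutation p = 0.8). The control libraries were spread more widely: control 1 held 62.4% fibrillar and 18.4% basement membrane, and control 2 held 53.6% and 27.7%. Without control 1 both differences changed sign, to 0.52 points for fibrillar and -0.88 points for basement membrane chains.

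**Figure D3:**
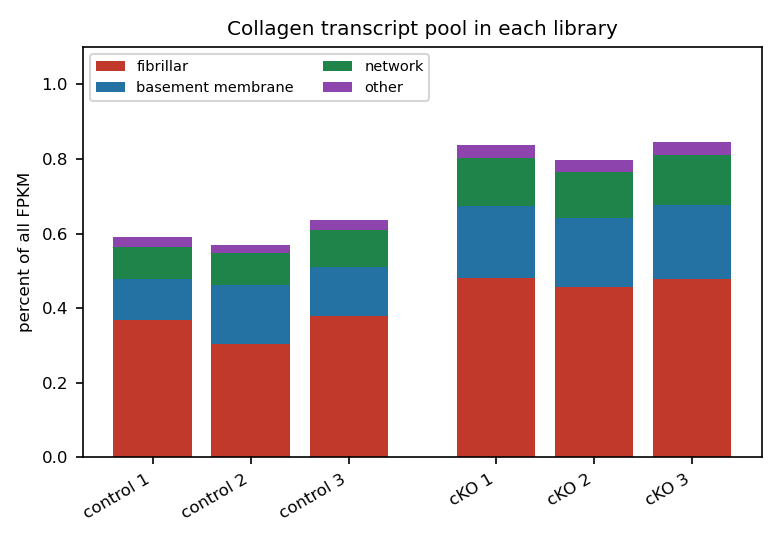
Stacked bars give the percent of all FPKM held by each class of collagen members in each of the 6 libraries. The bars reach 0.568 to 0.636% in the controls and 0.797 to 0.844% in the cKO libraries.

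Ratios between partner chains were taken on counts divided by 1 fixed length per gene, for 8 pairs. With 3 libraries against 3 the exact permutation p cannot go below 0.1, so no pair could pass the test. The adjusted p ran from 0.8 to 0.9. Col1a1 over Col1a2 was 0.561 ± 0.0378 in the controls and 0.540 ± 0.0296 in the cKO libraries (SD, n = 3). Col4a2 over Col4a1 was 0.422 ± 0.0181 and 0.406 ± 0.00628. Col6a2 over Col6a1 was the only pair whose groups did not overlap, with 0.861 ± 0.0328 and 0.800 ± 0.00284 (exact permutation p = 0.1, adjusted p = 0.8).

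Several chains lie next to each other in the genome, and the reference gene table lists 8 pairs of neighbouring collagen genes. The log2 fold changes of the neighbours were 0.55 and 0.50 for Col4a1 and Col4a2, and 0.47 and 0.60 for Col3a1 and Col5a2. For Col6a1 and Col6a2 they were 0.53 and 0.42, and for Col6a4, Col6a5 and Col6a6 they were 0.52, 0.84 and 0.80. Col4a5 and Col4a6 were at 0.68 and 0.70. Col4a3 and Col4a4 were at 0.47 and 0.47, and neither passed the test. Col9a1 was at 0.20 and did not pass, and its neighbour Col19a1 was not tested. Only where transcripts of neighbours overlap can their reads not be told apart if counting ignored strand. The use of strand is not given in the sources used here.

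Promoters were searched because so many members moved together. RefSeq sequences (GRCm38.p6) matched 35 collagen genes with 38 promoters, each 300 bases long and reaching 50 bases past the start. These genes were taken in either spelling and whether called or not. The collagen genes without a match were Col1a1, Col2a1, Col4a3, Col5a2, Col9a3, Col12a1, Col14a1, Col22a1 and Col26a1. Letters were searched on both strands. GGGCGG, a GC box, was in 23 of 38 (60.5%), against 35.7% of all 32851 promoters. The windows of Col4a1 and Col4a2 overlap, as do 2 windows of Col6a2, and each of these counts among the 23. A set of promoters matched for GC content was not compared. CCAAT was in 34.2% against 37.4%, TATAAA in 13.2% against 13.6% and CAGCTG in 18.4% against 16.3%. The part of the Col1a2 promoter before its start is shown because it holds both GGGCGG and CCAAT, in capitals (chr6:4505368-4505617, plus strand, GRCm38.p6).
Col1a2: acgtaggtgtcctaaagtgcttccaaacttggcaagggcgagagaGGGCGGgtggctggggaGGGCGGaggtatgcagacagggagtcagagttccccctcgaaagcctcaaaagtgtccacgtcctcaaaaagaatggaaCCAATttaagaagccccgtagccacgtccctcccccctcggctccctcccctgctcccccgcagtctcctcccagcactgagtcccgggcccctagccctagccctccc
A match describes the letters only and says nothing of whether a factor binds there.

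Transcript length moved with the fold change across all genes, and collagen transcripts are long. Length was read from the ratio of counts to FPKM, and its median was 5443 bases for the tested members and 2810 for all tested genes. The median log2 fold change rose from -0.19 in the shortest length decile to 0.27 in the longest decile, and the share of higher genes rose from 1.11% to 25.1%. Across genes, Spearman's rho of log2 fold change on length was 0.31 over 14421 genes and 0.36 over the 36 members, given as a description since genes share the libraries. In the longest decile, 9 of 12 members rose with a median of 0.50, and in the decile below it 9 of 15 rose with a median of 0.48, against 22.5% of all genes in that decile.

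**Figure D4:**
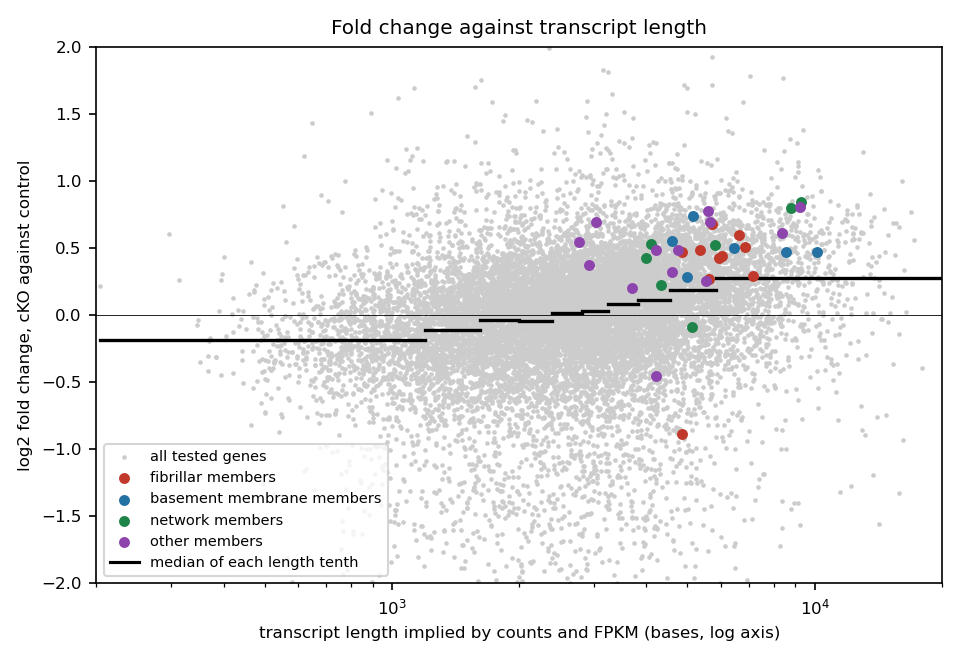
Log2 fold change against implied transcript length on a log axis, with all tested genes in grey, members in color and black lines for the median of each length decile. Members lie mostly above the line of their own decile. The plot leaves out 144 genes beyond a log2 fold change of 2 in size or outside the length range.

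The length trend was not the same in every library. It was lowest for members in control 1, where the trend at the members had a median of -0.29 and the members themselves were at -0.29 on the log2 scale against the mean of all libraries. In control 2 the trend was 0.08 while the members were at -0.28, and in control 3 the values were -0.07 and -0.16. In the 3 cKO libraries the trend ran from 0.09 to 0.11 and the members from 0.23 to 0.27.

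With the length trend of each library removed, 14 of 36 members rose, 1 fell (Col2a1, log2 fold change -1.04), and the median log2 fold change was 0.30. Over all tested genes that fit called 14.2% higher and 19.5% lower. All 14 were among the 23. Col15a1 (0.55), Col4a1 (0.41), Col27a1 (0.46), Col6a1 (0.42), Col13a1 (0.67) and Col23a1 (0.48) kept their calls. Col1a1 (0.18, adjusted p 0.404), Col1a2 (0.28, 0.0909), Col3a1 (0.30, 0.122), Col4a2 (0.25, 0.0529) and Col7a1 (0.46, 0.0567) lost theirs under edgeR. Col22a1 fell by 1.75 on the log2 scale.

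FPKM and CPM differed for some members because the implied length of a gene was not the same in every library. It differed by more than 1.1-fold between libraries in 12 members, and control 1 had the shortest value in 7 of these 12. For Col24a1, which spans a 3.44-fold range, CPM was 5.98 ± 0.564 and 7.32 ± 0.942 (SD, n = 3) in controls and cKO, while FPKM was 0.77, 1.95 and 3.13 in the controls and 1.07, 1.08 and 0.85 in the cKO libraries.

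Germ cell transcripts were lower in the cKO libraries and many markers of somatic cells were higher. Over all tested genes, 11.1% rose and 13.9% fell, the background for each count of markers. Of 8 germ cell markers, 7 fell, and their summed level was 1069 to 1382 CPM in the controls and 395 to 505 CPM in the cKO libraries. Of 8 interstitial stroma markers, 5 rose, with sums of 743 to 854 and 1238 to 1271 CPM. Sertoli cell markers rose in 6 of 10 (3754 to 5130 and 5100 to 5843 CPM) and endothelial markers in 5 of 8 (209 to 239 and 291 to 315 CPM). Leydig cell markers rose in 2 of 7 (439 to 915 and 1011 to 1038 CPM) and macrophage markers in 2 of 8 (101 to 130 and 145 to 188 CPM). Peritubular myoid markers rose in 1 of 8, with sums of 1605 to 1654 and 1687 to 1745 CPM, and Acta2, the smooth muscle actin of these cells, had a log2 fold change of -0.15 that did not pass. In bulk samples, fewer cells of a type and less RNA per cell cannot be told apart.

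Mesothelium, rete testis and duct markers passed in 0 of 5, with sums of 6.75 to 22.3 and 15.4 to 41.4 CPM (edgeR; 1 was higher at an unadjusted p under 0.05, and DESeq2 called 0). Adipocyte markers were at 13.2 to 15.9 and 17.2 to 21.8 CPM in sum, with 1 of 1 tested gene higher. Of the cartilage markers, Cnmd and Hapln1 rose among 3 tested, the sums were 24.0 to 31.7 and 39.7 to 43.3 CPM, and Matn1 was at 0 counts in every library. Their part in the collagen values was not tested.

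Scaled to 49 markers of the somatic cells in place of all genes, most collagen differences no longer passed the test. Then 2 of 36 members rose (Col7a1 at 0.41 and Col23a1 at 0.29 on the log2 scale), 1 fell (Col2a1 at -1.28), and the median log2 fold change was 0.09. This scaling moved the median of all tested genes to -0.37, and called 0.631% of them higher and 45.0% lower. Of the 36 members, 25 had a log2 fold change above 0. Col1a1, Col1a2 and Col3a1 were at 0.03, 0.09 and 0.08, and Col4a1 was at 0.15. Col22a1 was at -1.85. This fit left the length trend in, and the removal of the trend was not combined with the marker scaling. The median length trend, cKO minus control, was 0.20 at the members. In the marker lists used for scaling it ran from -0.06 (Leydig cell) to 0.11 (endothelial cell).

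**Figure D5:**
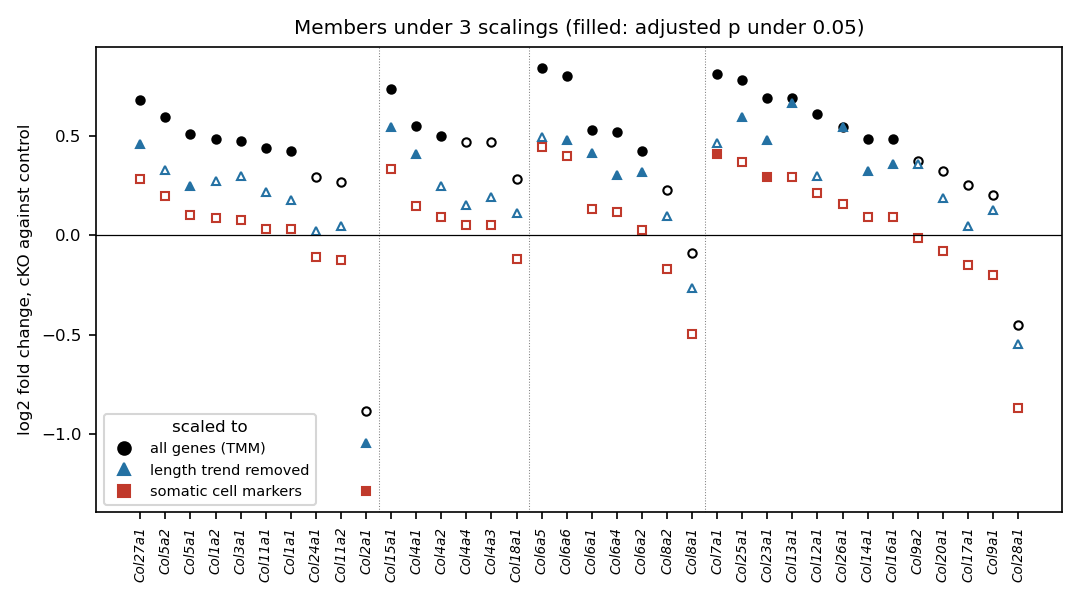
Log2 fold change of the 36 tested members under 3 scalings: all genes, all genes with the length trend of each library removed, and the somatic cell markers. Filled points have an adjusted p under 0.05, dotted lines separate the classes (fibrillar, basement membrane, network, other), and the medians are 0.48, 0.30 and 0.09.

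Genes that fold, process and bind collagen, and TGF-beta signalling genes, were read from 5 lists. Of 79 tested genes in 5 lists, 20 rose and 0 fell, against 11.1% and 13.9% of all tested genes (edgeR). At an unadjusted p under 0.05 (edgeR), 38 were higher and 2 lower, against 2756 and 2880 of all 14424 tested genes. DESeq2 called 25 of the 79 higher and 0 lower, against 11.9% and 15.8%. The adjusted edgeR count of 20 moved with single libraries. Without control 1, 38 genes passed, and without control 3, 13 passed. It was 4, 5 and 7 without cKO 1, 2 or 3. Scaled to the somatic cell markers, the median log2 fold change of each list was below 0, from -0.18 to -0.06. At an unadjusted p under 0.05 (edgeR), 2 of the 79 were then higher and 17 lower. Of all 14424 tested genes, 174 were higher and 7454 lower by the same measure. Among folding and modification genes, 2 of 21 rose, a share near that background, and the median log2 fold change was 0.24. These were Mia3 (0.44), which helps export procollagen from the endoplasmic reticulum, and P3h3 (0.39), a prolyl hydroxylase family member. Serpinh1, the collagen chaperone HSP47, read 431, 369 and 296 CPM in the controls against 470, 484 and 460 CPM in the cKO libraries. Its log2 fold change of 0.37 had an edgeR adjusted p of 0.0723. P4ha1, a prolyl 4-hydroxylase subunit, was at 0.27 with an edgeR adjusted p of 0.201. With the length trend removed, 10 of these 21 genes rose and 1 fell, against 14.2% and 19.5% of all tested genes, with Serpinh1 among the higher ones (0.41, edgeR adjusted p 0.0127). Their median length was 2861 bases.

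Processing and cross-linking genes rose in 5 of 14 (median 0.33). Adamts2, which removes the N-terminal propeptide of procollagen, read 149, 162 and 173 CPM in the controls against 249, 238 and 249 CPM in the cKO libraries, a log2 fold change of 0.60. Bmp1, which removes the C-terminal propeptide, rose by 0.42, and Lox, the cross-linking lysyl oxidase, by 0.31. Pxdn, which cross-links type IV collagen, rose by 0.38, and Tll2, a relative of Bmp1, by 1.1. Once the length trend was removed, 3 of these 14 genes rose and 0 fell, against 14.2% and 19.5% of all tested genes. Lox (0.16, edgeR adjusted p 0.109) and Pxdn (0.14, edgeR adjusted p 0.247) then lost their calls.

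Fibril and basement membrane partners rose in 3 of 17 (median 0.28). Nid1, which links laminin to type IV collagen, rose by 0.57, Tnxb by 0.81 and Ogn by 0.36. After removal of the length trend, 6 of these 17 rose and 0 fell, against 14.2% and 19.5% of all tested genes. The Tnxb call was then lost (0.37, edgeR adjusted p 0.156). Of the collagen receptors, 3 of 11 rose (median 0.34): Ddr2 by 0.56, Ddr1 by 0.34 and Adgrg1, a receptor for type III collagen, by 0.41. In the TGF-beta list, 7 of 16 rose (median 0.22), among them Ltbp3 by 0.54 and Smad7, a feedback inhibitor of the pathway, by 0.49. After removal of the length trend, 4 of the 11 receptors rose and 0 fell, and 4 of the 16 TGF-beta genes rose and 1 fell. Ccn2, which TGF-beta is known to induce, had a log2 fold change of -0.20 that did not pass the test. Under the somatic marker scaling, edgeR called 0 folding genes higher and 7 lower, and 0 and 1 of the processing genes. Partners gave 1 and 1, receptors 0 and 0, and TGF-beta genes 0 and 4, against 0.631% and 45.0% of all tested genes.

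Libraries held 15407007 to 18372964 counts, of which collagen members took 1.23 to 1.42% in the controls and 1.73 to 1.81% in the cKO libraries. The targeted gene, listed as Dtl (another name of Dcaf2), read 42.6, 50.3 and 77.4 CPM in the controls against 41.7, 43.8 and 51.5 CPM in the cKO libraries. The groups overlapped, and its log2 fold change of -0.31 ± 0.20 (SE) had an edgeR adjusted p of 0.281. A total over all cells of the testis and over the whole transcript does not check a deletion in germ cells alone.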

How the data were processed

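Counts and FPKM of each gene stand side by side in the 1 table the authors deposited. StringTie 1.3.1 and RSEM are named, with no role, per the submitters' processing notes. For the aligner, build, annotation and strand, a name was not given in the sources used here. The deposited whole-number counts were read as estimated counts rounded by the authors: between 3 and 21 genes of a library had an FPKM above 0 with no count. FPKM values deposited by the authors are scaled to length and depth and were used for levels between genes, pool shares and implied lengths only.

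In edgeR 4.0.16 (R 4.3.3), genes that passed filterByExpr (minimum count 10) were scaled by TMM and tested with the quasi-likelihood test, without covariates, all 6 libraries in 1 fit. P-values were Benjamini-Hochberg adjusted over 14424 genes, with a threshold of 0.05. Log2 fold changes are cKO against control. The implied length is the median over libraries of counts per FPKM and depth, where the count was at least 10 and FPKM at least 0.1, and the trend is a lowess of span 0.3, removed through offsets. Of 42 collagen genes, 22 had an implied length within 1% of the GENCODE M21 transcript used for sequences. Symbols came from the reference table for 22219 of 22274 IDs. The fits were tested on simulated data. DESeq2 1.42.0, 2 other scalings, somatic marker scaling, other filters, a replicate block and each library left out were tried.

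The marker lists were germ cell, interstitial stroma, Sertoli cell, endothelial cell, Leydig cell, macrophage, peritubular myoid cell, mesothelium with rete testis and duct, adipocyte and cartilage. Genes named are every collagen gene past the threshold, the 2 most abundant of each class, all chains of types I, III, IV, V and VI, and in each pathway list the 2 genes with the smallest p, with Serpinh1, P4ha1, Lox, Ddr1 and Ddr2. Other genes named were chosen after their values were seen. The members and lists were chosen with earlier results of these data known.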

Additional observations from a re-analysis of the deposited data

How the results depend on the processing

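The 23 higher and 0 lower members stayed within 1.5 times of those counts under DESeq2, size factors of relative log expression, total counts, both filters and the replicate block. Total-count scaling gave a median log2 fold change of 0.42 and 3 network genes, and DESeq2 gave 5 basement membrane genes. Scaling to somatic markers gave 2 higher and 1 lower member and a median of 0.0885. These were 1 fibrillar gene (Col2a1, lower), 0 basement membrane, 0 network and 2 other genes (higher; edgeR). At an unadjusted p under 0.05 (edgeR), this scaling gave 6 higher and 1 lower member, against 174 and 7454 of all 14424 tested genes. The higher members were 1 fibrillar, 1 basement membrane, 1 network and 3 other genes, and the lower one was fibrillar. Somatic marker scaling turned Ddr1 to -0.0611, Lox to -0.0915, P3h3 to -0.0014, P4ha1 to -0.12 and Serpinh1 to -0.0279. Removing the length trend gave 14 higher, 1 lower, a median of 0.30 and 3 fibrillar genes past the threshold (2 higher, Col2a1 lower). The cause of these differences was not tested. Leaving out a library gave 13 to 24 higher and 0 to 1 lower members, and 11 of the 23 calls held in all 6 such fits. It gave 2 to 8 fibrillar, 3 to 6 basement membrane, 3 to 5 network, 4 to 9 other and 4 to 38 pathway genes, against 7, 3, 5, 8 and 20. The fibrillar share of collagen FPKM, -1.41 points in cKO against control, ran from -3.85 (without control 2) to 0.52 (without control 1), and the basement membrane share, 1.0 points, from -0.88 (without control 1) to 3.73 (without control 2). Counting symbols in either spelling, chosen after seeing the data, gave 1 lower gene (Col22a1) and 5 basement membrane genes. In CPM the collagen share rose by 0.44 points, from a mean of 1.33% to 1.77%. In FPKM it rose by 0.23 points from a lower base, 0.598% to 0.826%. The replicate block, with libraries matched by number, called 22 members higher and 2822 genes in all, against 3607 without it. Deviations of same-numbered libraries correlated at -0.07, -0.06 and 0.05, no library correlated best with its own number, and the numbers were not taken to pair them. With 3 libraries a group, small differences were not detectable.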
